A study of Mus musculus with 8 samples.

Results

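Genes of the MHC class II antigen presentation pathway were examined in whole prostate of 3-month-old *Olfm4*-knockout mice and their wild-type counterparts. The 9 genes were *H2-Aa*, *H2-Ab1*, *H2-Eb1*, *Cd74*, *Ciita*, *H2-DMa*, *H2-DMb1*, *H2-Oa* and *H2-Ob*. They were chosen by name, from a table in which 18193 genes had a probe set of their own, and 19 of the 45037 probe sets tested carried one of these symbols. The knockout group held 4 mice lacking *Olfm4* (*Olfm4*-/-) and the wild-type group held 4 *Olfm4*+/+ mice. Both genotypes shared a mixed strain, made up in equal parts of National Institutes of Health Black Swiss and 129/SV, in which heterozygotes served as breeders. Each array measured the prostate RNA of a single mouse. The sample titles open with 1 of 2 dates, which are taken here as array days. Each date had 2 arrays of either genotype, and knockout and wild-type arrays are numbered 1 to 4 as in the labels.

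MHC class II molecules are pairs of an alpha and a beta chain that present peptides from endosomes to CD4+ T cells. They are made mainly by dendritic cells, macrophages and B cells, and by other cells after exposure to interferon gamma. The invariant chain, encoded by *Cd74*, escorts new class II pairs to endosomes, where H2-DM loads peptide and H2-O restrains H2-DM. CIITA is the coactivator that switches these genes on. It is recruited by the RFX, CREB and NF-Y factors, which sit on a pair of promoter elements known as the X box and the Y box.

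The promoter stretches are shown as background on the X and Y boxes, and whether they bear on the array values was not tested. Promoter windows from 250 bases before to 50 after a start were read from RefSeq (GRCm38.p6) for 6 of the 9 genes, *H2-Aa*, *H2-Eb1*, *H2-DMa*, *H2-DMb1*, *H2-Oa* and *H2-Ob*. The promoter of *Cd74* was left out of the reading, and no window was available for *H2-Ab1* and *Ciita*. Capitals mark GNAAC, letters of the X box, followed after 20 to 30 bases by TGATTGG, letters of the Y box. Both strands were searched, and the letters were chosen after these promoters had been read.
H2-Aa, chr17:34287861-34287912, minus strand: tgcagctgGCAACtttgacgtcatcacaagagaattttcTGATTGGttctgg
H2-Eb1, chr17:34305768-34305818, plus strand: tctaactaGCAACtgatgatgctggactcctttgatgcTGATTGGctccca
H2-DMb1, chr17:34153089-34153140, plus strand: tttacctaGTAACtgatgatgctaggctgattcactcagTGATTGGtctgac
H2-Oa, chr17:34092295-34092346, plus strand: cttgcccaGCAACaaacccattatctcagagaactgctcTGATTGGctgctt
H2-Ob, chr17:34238810-34238858, plus strand: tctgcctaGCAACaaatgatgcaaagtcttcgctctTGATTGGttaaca
The spacing between both sets of capitals was 26 bases for *H2-Aa*, *H2-DMb1* and *H2-Oa*, 25 for *H2-Eb1* and 23 for *H2-Ob*. Of 32851 promoter windows of the same length, 0.323% held this arrangement, 7.82% held TGATTGG and 84.8% held GNAAC. The letters TGATTGG were not in either of the 2 windows of *H2-DMa*.

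The authors deposited log2 values made with RMA, which corrects background, brings the arrays to a common distribution and summarises the probes of a probe set. No detection calls were used, and a mean log2 value under 5, seen for 35.9% of probe sets, is called dim here. The arrays had medians of 6.03 to 6.09 and correlated with each other at 0.983 to 0.996, and their number limits the precision. Genotypes were compared in a limma model that held array day as a block, with Benjamini-Hochberg adjustment across all 45037 probe sets. Log2 fold changes are knockout minus wild type, and SE is their standard error. *Olfm4*, the deleted gene, read 3.00 to 3.25 on the knockout and 10.23 to 10.74 on the wild-type arrays. Of 9 prostate epithelium markers listed, 7 were measured, with mean levels of 13.27 to 14.00 on knockout and 13.91 to 13.93 on wild-type arrays.

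Some arrays stood apart. Knockout array 1 and wild-type array 1 were rich in seminal vesicle transcripts, with mean levels of 13.81 and 14.14 over 6 markers, where the other arrays had 7.88 to 10.04. Knockout array 1 was also low in the prostate secretory gene *Msmb*, at 11.09, against 14.14 to 14.35 on the other knockout arrays and 14.09 to 14.22 on the wild-type arrays. Knockout arrays 1 and 4 stood apart at probe sets of the MHC region. A probe set shared by the class I genes *H2-Q5* and *H2-K1* read 6.61 and 6.16 on knockout arrays 1 and 4, against 3.93 and 3.83 on knockout arrays 2 and 3 and 3.68 to 3.84 on the wild-type arrays. A probe set of *Vps52*, a vesicle-transport gene beside the class II region, read 6.20 and 9.0 on knockout arrays 1 and 4, against 9.88 and 10.01 on knockout arrays 2 and 3 and 9.72 to 9.95 on the wild-type arrays. Another probe set of *Vps52* read 9.47 to 9.59 on the knockout and 9.54 to 9.66 on the wild-type arrays. These probe sets were chosen after their values were seen, and values without knockout arrays 1 and 4 are given for members where they differed.

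**Figure D1:**
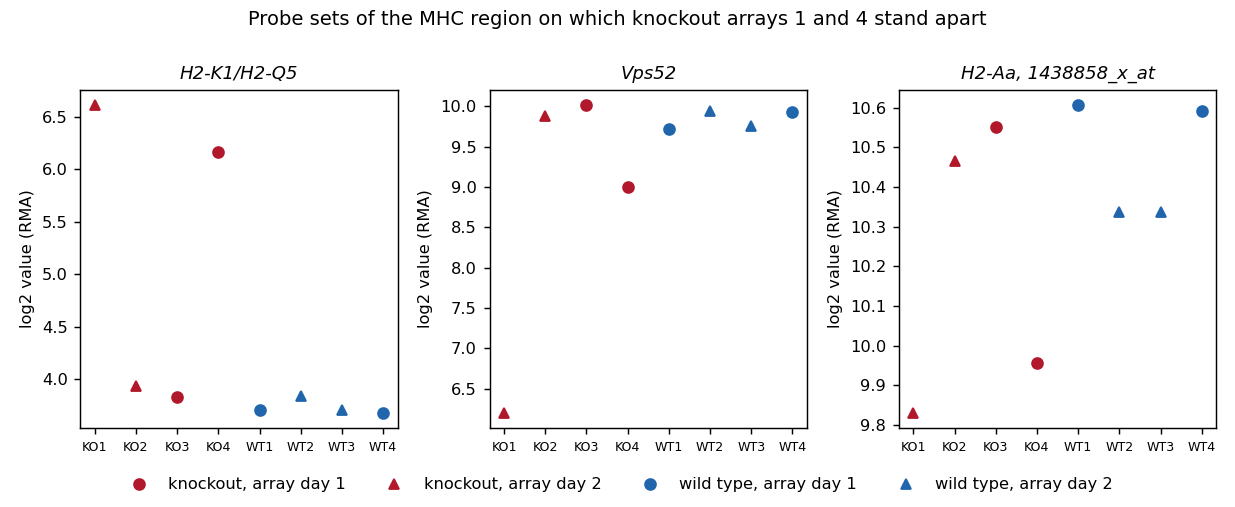
Log2 value on each of 8 arrays (4 knockout on the left, 4 wild-type on the right; circles, array day 1; triangles, array day 2) for a probe set shared by *H2-K1* and *H2-Q5*, 1 of *Vps52* and the second-brightest of *H2-Aa*. Knockout arrays 1 and 4 lie apart from the other 6 arrays in each panel, at 6.61 and 6.16 in the first and at 9.83 and 9.96 in the last.

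Most probe sets of class II genes had slightly lower means in knockout prostate, but none passed the test over all probe sets. Of 19 member probe sets, 16 had a lower and 3 a higher mean in knockout prostate, and their median log2 fold change was -0.12, against -0.014 over all probe sets. A lower mean in knockout prostate was thus seen for 84.2% of the member probe sets and 53.8% of all probe sets. Probe sets of a gene, and genes of a pathway, are not independent of each other, so these shares carry no test. None of the 19 was called at an adjusted p under 0.05 in limma, where 0.111% of all probe sets were. At an unadjusted p under 0.05 stood 4 of the 19, where 12.8% of all probe sets did. Of these, 3 were lower, where 7.34% of all probe sets were, and 1 was higher, where 5.46% of all probe sets were. Counted by brightest probe set, 2 of the 9 genes were lower (8.49% of all genes) and 0 higher (6.27% of all genes). The methods name analysis of variance and state no covariates. Run here without array day, analysis of variance called 0 members and gave 0 lower and 0 higher at an unadjusted p under 0.05. In 0 of 19 did every knockout array lie below every wild-type array (5.03% of all probe sets), and in 2 every knockout array lay above (3.69% of all probe sets). In bulk tissue, fewer cells of a type and less RNA per cell cannot be told apart.

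**Figure D2:**
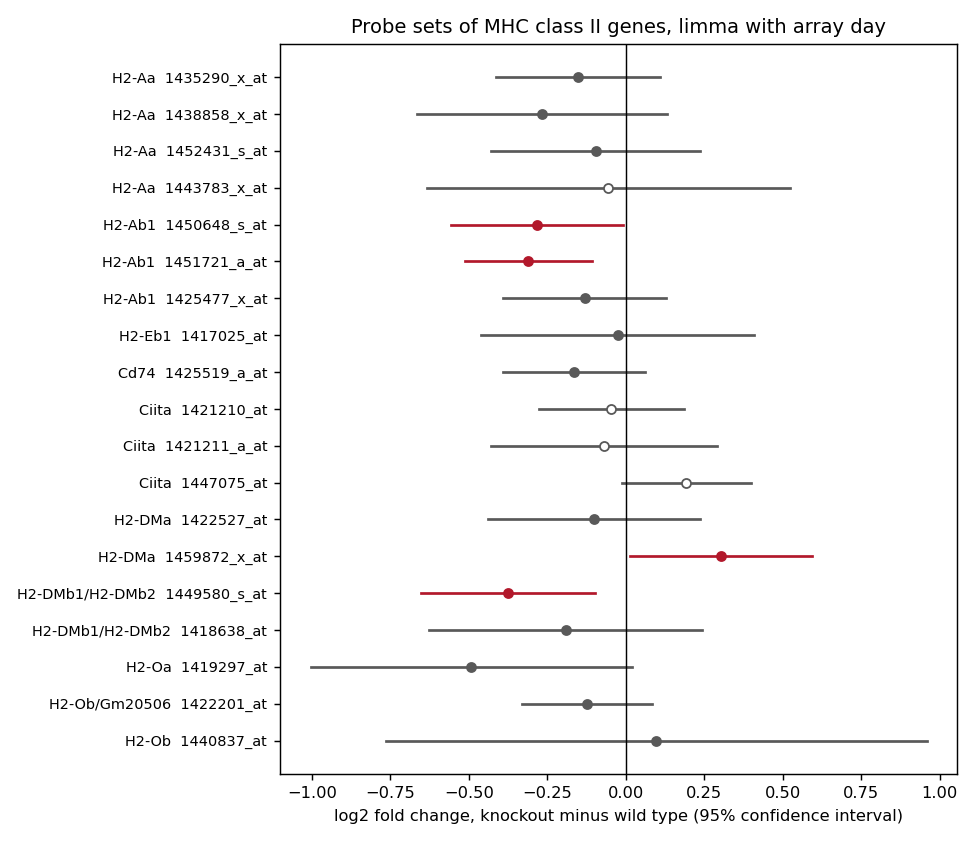
Difference on the log2 scale, knockout minus wild type, for the 19 probe sets of MHC class II genes, with points for the limma estimate and lines for its 95% confidence interval (open points, mean log2 value under 5). The 2 brighter of 3 *H2-Ab1* probe sets at -0.28 and -0.31, the *H2-DMb1*/*H2-DMb2* probe set at -0.37 and an *H2-DMa* probe set at 0.30 are in red (unadjusted p under 0.05), and none passed after adjustment over all probe sets.

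*H2-Ab1*, which encodes the beta chain of the I-A molecule, had the smallest p among the members. Its brightest probe set (1450648_s_at) had log2 values of 11.10, 11.03, 11.43 and 11.07 on knockout arrays 1 to 4, against 11.74, 11.36, 11.04 and 11.62 on wild-type arrays 1 to 4. Wild-type arrays 1 and 4 were above every knockout array, while wild-type array 3 lay among the lowest knockout arrays. The log2 fold change was -0.28 (SE 0.12, unadjusted p = 0.0451, adjusted p = 0.380 from limma). The second probe set (1451721_a_at) had 9.83, 9.74, 10.28 and 10.06 on the knockout arrays, against 10.52, 10.25, 9.99 and 10.40 on the wild-type arrays. Its log2 fold change was -0.31, a fold of 0.806 (SE 0.086, 95% confidence interval -0.51 to -0.11, unadjusted p = 0.00780, adjusted p = 0.261 from limma), and it was -0.29 on array day 1 and -0.33 on array day 2. The groups overlapped at both probe sets. The dimmest of its 3 probe sets averaged 8.30 in knockout and 8.43 in wild-type prostate, a difference of -0.13 (unadjusted p = 0.274 from limma). Without knockout arrays 1 and 4 the first and second probe sets had log2 fold changes of -0.21 and -0.28 (unadjusted p = 0.124 and 0.0512 from limma).

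*H2-Aa* encodes the alpha chain that pairs with the product of *H2-Ab1*. Its brightest probe set (1435290_x_at) had log2 values of 11.72, 11.57, 11.86 and 11.58 on the knockout arrays, against 12.15, 11.75, 11.61 and 11.81 on the wild-type arrays. The ranges overlapped, and the difference was set largely by wild-type array 1, since the log2 fold change was -0.15 with it (SE 0.11, adjusted p = 0.611 from limma) and -0.063 without it. The second-brightest probe set of *H2-Aa* behaved otherwise. It read 9.83, 10.47, 10.55 and 9.96 on the knockout arrays, against 10.61, 10.34, 10.34 and 10.59 on the wild-type arrays, so that knockout arrays 1 and 4 were the lowest of all 8, as they stood apart at the *H2-K1*/*H2-Q5* and *Vps52* probe sets. Its log2 fold change was -0.27 (unadjusted p = 0.157 from limma) and 0.040 without knockout arrays 1 and 4. The other 2 probe sets, the last of them dim, differed by -0.096 and -0.056, and neither passed. The brightest probe set did not share that pattern of knockout arrays 1 and 4, and whether what set those arrays apart at the other probe sets also acts on member probe sets was not tested.

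*H2-Eb1*, which encodes the beta chain of the second class II molecule, I-E, had log2 values of 12.01, 11.14, 11.69 and 11.66 on the knockout arrays, against 11.97, 11.57, 11.38 and 11.69 on the wild-type arrays. Knockout arrays 1 and 2 were the highest and the lowest of all 8, and the means of 11.63 ± 0.36 in knockout and 11.65 ± 0.25 in wild-type prostate (SD, n = 4 each) lay far closer together than the arrays of either group. The log2 fold change was -0.026, with a 95% confidence interval of -0.46 to 0.41, and -0.24 without knockout arrays 1 and 4 (unadjusted p = 0.108 from limma). The alpha chain of I-E comes from *H2-Ea*, which RefSeq annotates as a transcribed pseudogene in the C57BL/6J reference mouse. The 3 probe sets of *H2-Ea* averaged 5.04, 4.69 and 3.01 in knockout and 5.10, 4.87 and 2.87 in wild-type prostate, at or near the dim range on every array of either genotype. *H2-Eb2*, a related beta-chain gene, averaged 4.96 in knockout and 5.02 in wild-type prostate.

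*Cd74* had log2 values of 12.99, 12.64, 13.06 and 12.93 on the knockout arrays, against 13.25, 13.05, 12.87 and 13.12 on the wild-type arrays. The log2 fold change was -0.17, a fold of 0.892 (SE 0.097, unadjusted p = 0.128, adjusted p = 0.526 from limma), with overlapping groups and the lowest value on knockout array 2. It was -0.19 on array day 1 and -0.14 on array day 2.

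Among the peptide-loading genes, *H2-DMb1* had no probe set of its own and was read only together with its neighbour *H2-DMb2*, so that the genes cannot be told apart. The brighter shared probe set (1449580_s_at) had log2 values of 7.70, 7.59, 7.96 and 8.37 on the knockout arrays, against 8.62, 8.13, 8.08 and 8.28 on the wild-type arrays. Knockout arrays 1 to 3 were below every wild-type array, and knockout array 4 was above all of them but wild-type array 1. The log2 fold change was -0.37, a fold of 0.771 (SE 0.12, unadjusted p = 0.0145, adjusted p = 0.292 from limma). It was -0.28 on array day 1 and -0.47 on array day 2, and -0.51 without knockout arrays 1 and 4. The other shared probe set read 7.53, 7.42, 7.51 and 8.33 on the knockout arrays, against 8.31, 7.80, 7.60 and 7.85 on the wild-type arrays (log2 fold change -0.19, unadjusted p = 0.334 from limma). Probe sets of *H2-DMb2* alone had log2 fold changes of -0.10, -0.19 and -0.24, and none passed an unadjusted p under 0.05.

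*H2-DMa*, which encodes the alpha chain of H2-DM, gave opposite signs at its 2 probe sets. The brighter one (1422527_at) had log2 values of 8.50, 8.02, 8.57 and 8.61 on the knockout arrays, against 8.84, 8.60, 8.22 and 8.45 on the wild-type arrays, a difference of -0.10 (SE 0.14, adjusted p = 0.818 from limma), or -0.23 without knockout arrays 1 and 4 (unadjusted p = 0.233 from limma). The dimmer one (1459872_x_at) had 6.70, 6.30, 6.29 and 6.55 on the knockout arrays, against 6.13, 6.28, 5.96 and 6.26 on the wild-type arrays. Every knockout array was above every wild-type array there, by a narrow margin for knockout array 3 over wild-type array 2, and the log2 fold change was 0.30 (SE 0.12, unadjusted p = 0.0424, adjusted p = 0.372 from limma). It was 0.14 (unadjusted p = 0.296 from limma) without knockout arrays 1 and 4. A direction for *H2-DMa* cannot be given from these probe sets.

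*H2-Oa* and *H2-Ob* encode the chains of H2-O, which is known mainly from B cells and some dendritic cells. *H2-Oa* had log2 values of 6.31, 5.56, 6.64 and 6.12 on the knockout arrays, against 6.99, 6.78, 6.28 and 6.53 on the wild-type arrays. Its log2 fold change of -0.49 was the largest in size among the member probe sets (SE 0.22, 95% confidence interval -1.0 to 0.021, unadjusted p = 0.0577, adjusted p = 0.408 from limma), and it was -0.39 on array day 1 and -0.60 on array day 2. Without knockout array 2, the lowest, it was -0.32. *H2-Ob* was close to the dim range, at 5.99, 4.33, 4.76 and 5.17 on the knockout arrays, against 5.57, 4.76, 4.52 and 5.01 on the wild-type arrays. Its log2 fold change of 0.096 rested on knockout array 1 and was -0.32 without it. A probe set that *H2-Ob* shares with *Gm20506* differed by -0.12 (unadjusted p = 0.206 from limma).

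*Ciita* was dim at each of its 3 probe sets. These averaged 4.81, 4.75 and 4.77 in knockout and 4.85, 4.82 and 4.57 in wild-type prostate, with log2 fold changes of -0.046, -0.070 and 0.19. At the third, every knockout array, at 4.63 to 4.91, was above every wild-type array, at 4.55 to 4.62 (unadjusted p = 0.0627 from limma). At such values signal and background cannot be separated, so no level of *Ciita* is read from these arrays.

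**Figure D3:**
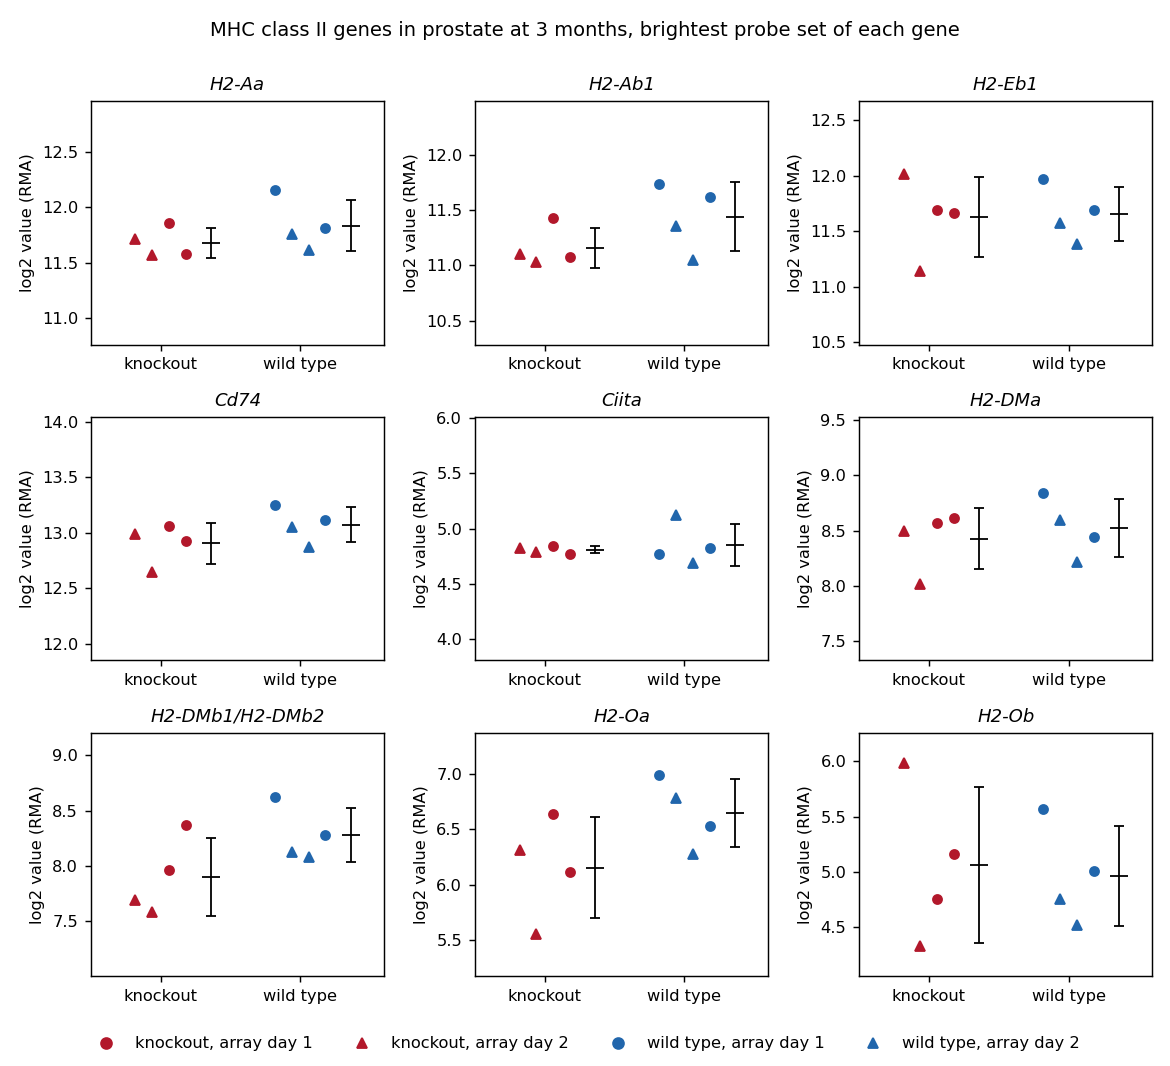
Log2 value of the brightest probe set of each of the 9 genes on 4 knockout (red) and 4 wild-type (blue) arrays, with bars for the mean and SD; circles are array day 1 and triangles array day 2, and every panel spans the same number of log2 units. The groups overlap in all 9 panels, and knockout array 2 is lowest and wild-type array 1 highest in many of them.

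Some of the members moved together across the arrays, and whether they did so more than other genes was not tested. Among the 15 member probe sets that were not dim, wild-type array 1 was the highest of the 8 arrays at 11, and knockout array 2 was the lowest at 11. Several of these probe sets belong to the same gene, and the matching shares over all probe sets were not counted. The array median was 6.03 for knockout array 2, the lowest of the 8, and 6.09 for wild-type array 1. Averaged over *H2-Aa*, *H2-Ab1*, *H2-Eb1* and *Cd74*, knockout arrays 1 to 4 lay 0.035, -0.33, 0.089 and -0.11 from the mean of all arrays on the log2 scale, against 0.36, 0.013, -0.19 and 0.14 for wild-type arrays 1 to 4. Over the 8 arrays *H2-Aa* and *H2-Ab1*, whose products form a single molecule, had a Pearson r of 0.91 (exact permutation test, 2-sided, p = 7.69e-04, adjusted p = 0.0108 over 14 relations) and a Spearman rho of 0.95 (exact permutation p = 0.00114, adjusted p = 0.00799). It was the only one of the 14 relations, 8 with other members and 6 with marker lists, whose r passed. Without wild-type array 1 and knockout array 2, the 2 arrays farthest from the median of *H2-Aa*, r was 0.86 (exact permutation p = 0.0417, adjusted p = 0.292) with 6 arrays. Leaving out wild-type array 1 or 2 alone gave r of 0.88 and 0.91 that missed the threshold (adjusted p = 0.0824 and 0.0583, exact permutation), while without knockout array 2 alone it passed (r of 0.89, adjusted p = 0.0167, exact permutation). Within array days 1 and 2, with 4 arrays each, r was 0.89 and 0.83, and after genotype and array day were removed it was 0.85.

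*H2-Aa* had r of 0.86 with *Cd74* (adjusted p = 0.0602, exact permutation) and 0.83 with *H2-Oa* (adjusted p = 0.0657, exact permutation), and both passed by rho (0.95 with adjusted p = 0.00799, and 0.93 with adjusted p = 0.0104, exact permutation). Within array days 1 and 2, r was 0.97 and 0.95 for *Cd74* and 0.99 and 0.88 for *H2-Oa*, and without wild-type array 1 and knockout array 2 it was 0.90 and 0.81 for these genes. *H2-Aa* had r of 0.73 with *H2-DMa*, 0.65 with *H2-Eb1*, 0.58 with the *H2-DMb1*/*H2-DMb2* probe set, 0.44 with *H2-Ob* and 0.092 with the dim *Ciita*, none of which passed by r or rho.

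Genes whose pattern over the 8 arrays was most like the mean of *H2-Aa*, *H2-Ab1*, *H2-Eb1* and *Cd74* were sought among 12326 other genes with a mean log2 value of at least 6. The 10 with the highest Pearson r, between 0.93 and 0.97, were *Qprt*, *St6galnac4*, *Stard5*, *Got2*, *Sidt2*, *Chmp6*, *C2*, *Slco1a5*, *Dmp1* and *Pole3*. *C2*, a complement gene of the MHC region, had r of 0.93, or 0.96 after genotype and array day were removed. *Qprt*, an enzyme gene of NAD synthesis, had r of 0.97 and averaged 6.13 in knockout and 6.35 in wild-type prostate. As the highest of so many, these r values are a description.

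**Figure D4:**
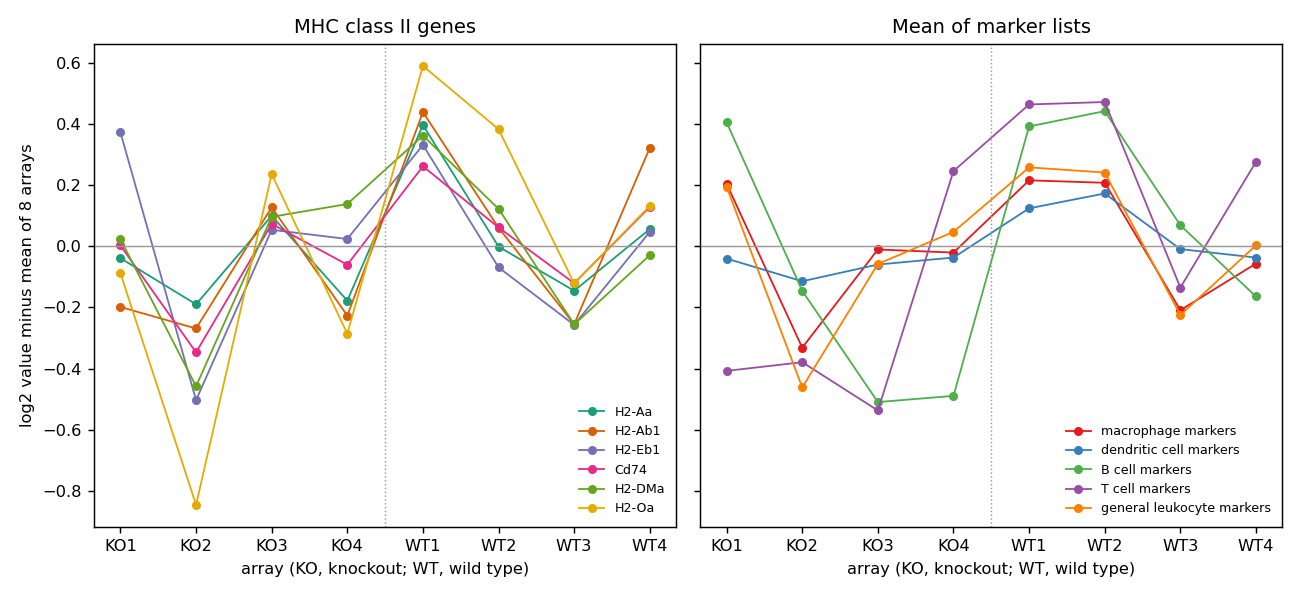
Left, log2 value of 6 MHC class II genes on each array minus the mean of the 8 arrays; right, the same for the mean of 5 marker lists, with knockout arrays left of the dotted line and wild-type arrays right of it. Knockout array 2 is the lowest for each of the 6 genes and for the macrophage, dendritic cell and general leukocyte lists, while wild-type array 1 is highest for 5 of the 6, all but *H2-Eb1*.

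Markers of the cells that carry class II moved in part with these genes. Macrophage markers, all 10 measured, had mean levels of 9.89, 9.35, 9.68 and 9.67 on knockout arrays 1 to 4, against 9.90, 9.89, 9.48 and 9.63 on wild-type arrays 1 to 4, with the lowest value on knockout array 2 as for class II. The median log2 fold change of the list was -0.054. At an unadjusted p under 0.05, 1 of the 10 was lower (8.49% of all genes) and 0 higher (6.27% of all genes). The lower one was the phagocytic receptor gene *Mertk* (-0.23, unadjusted p = 0.0313 from limma). Dendritic cell markers, 8 of 9 measured and 3 of those dim, ranged from 5.69 to 5.77 on the knockout and from 5.77 to 5.98 on the wild-type arrays. Their median log2 fold change was -0.13, with means that were lower for 6 and higher for 2. At an unadjusted p under 0.05, 1 was lower (8.49% of all genes) and 0 higher (6.27% of all genes). The lower one was *Batf3*, a transcription factor gene of cross-presenting dendritic cells, which differed by -0.41 (unadjusted p = 0.0119, adjusted p = 0.282 from limma). *Xcr1*, which was dim, differed by -0.013. The 2 with higher means were *Zbtb46* (0.11) and the dim *Cd209a* (0.10). B cell markers, 8 of 10 measured and 3 of those dim, ranged from 5.17 to 6.09 on the knockout and from 5.52 to 6.13 on the wild-type arrays, with a median log2 fold change of -0.27 and means that were lower for 7 and higher for 1. The higher one, the complement receptor gene *Cr2*, read 7.77 on knockout array 1 and 4.54 to 5.04 on the other knockout arrays, against 4.57 to 5.12 on the wild-type arrays. *Blk* and *Fcrla* differed by -0.0048 and -0.0089. *Ms4a1*, which encodes the B cell antigen CD20, read 4.27, 4.35, 3.83 and 4.32 on the knockout arrays, against 6.63, 6.50, 4.42 and 4.16 on the wild-type arrays, so that it was above the dim range on wild-type arrays 1 and 2 alone. *Jchain*, a gene of antibody-secreting cells, differed by -1.41 (SE 0.53, unadjusted p = 0.0310, adjusted p = 0.344 from limma). It read 10.38, 9.98, 7.31 and 8.68 on the knockout arrays, against 11.06, 10.85, 10.20 and 9.89 on the wild-type arrays. Knockout arrays 1 and 2 thus lay within the wild-type range. At an unadjusted p under 0.05 *Jchain* was the 1 lower gene of the list (8.49% of all genes), and 0 were higher (6.27% of all genes). The 6 general leukocyte markers ranged from 9.92 to 10.57 on the knockout and from 10.15 to 10.64 on the wild-type arrays.

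T cell markers had the largest median difference in size among the lists. All 7 measured of 8 listed, 2 of those dim, had a lower mean in knockout prostate, and 4 were lower at an unadjusted p under 0.05, where 8.49% of all genes were. *Cd247*, 1 of these 4, was dim at a mean of 4.95 and differed by -0.32. Its other probe sets, also dim, differed by -0.031, 0.29 and -0.072. The list ranged from 5.47 to 6.25 on the knockout and from 5.87 to 6.48 on the wild-type arrays, and its median log2 fold change was -0.65. *Cd3e*, of the T cell receptor complex, averaged 7.33 in knockout and 7.98 in wild-type prostate (log2 fold change -0.66, unadjusted p = 0.0119, adjusted p = 0.281 from limma). *Cd8a*, the co-receptor of class I-restricted cells, averaged 6.28 in knockout and 7.05 in wild-type prostate (-0.77, unadjusted p = 0.0283, adjusted p = 0.337 from limma). *Cd4*, the co-receptor for class II, was dim at both probe sets, at 4.94 and 4.73 in knockout and 4.94 and 4.74 in wild-type prostate. Over the 8 arrays *H2-Aa* had r of 0.62 with the macrophage list, 0.60 with general leukocyte, 0.55 with dendritic cell, 0.53 with seminal vesicle, 0.38 with T cell and 0.35 with B cell markers, and no relation with a list passed (lowest adjusted p = 0.226, exact permutation). Within array days 1 and 2, r was 0.83 and 0.99 with the macrophage, 0.86 and 0.99 with the B cell, 0.90 and 0.041 with the seminal vesicle and 0.19 and 0.60 with the T cell list. With the macrophage list r was 0.29 without wild-type array 1 and knockout array 2, and 0.52 without either of them alone. Leaving out the arrays farthest from the median of *H2-Aa* narrows its range, so a lower r is not read further. The part of these cells in the class II values was not tested.

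Genes that act on class II expression were also measured. By brightest probe set, 8.49% of all genes were lower and 6.27% higher at an unadjusted p under 0.05, the background for the counts that follow. Of 7 factors of the X and Y boxes, 2 were lower and none higher. *Rfx5*, a subunit of the RFX complex, averaged 10.15 in knockout and 10.34 in wild-type prostate (log2 fold change -0.20, unadjusted p = 0.0213, adjusted p = 0.313 from limma), and *Rfxank*, another subunit, differed by -0.19 (unadjusted p = 0.0495, adjusted p = 0.389 from limma) at its brightest probe set and by 0.043 and 0.23 at others (unadjusted p = 0.0267 for 0.23). Of 10 measured genes that feed interferon gamma signals to *Ciita*, out of 11 listed, 1 was lower, the receptor gene *Ifngr2* (-0.37, unadjusted p = 0.0408, adjusted p = 0.367 from limma), with 0.11 at another probe set. Dimmer probe sets of *Irf8* (-0.30, unadjusted p = 0.0112 from limma) and *Jak1* (-0.25, unadjusted p = 0.0315 from limma) were also lower. The brightest probe sets of *Irf8* and *Jak1* differed by -0.14 and -0.032, and another of *Jak1* by -0.019. By brightest probe set, means in this list were lower for 7 and higher for 3 genes, with a median log2 fold change of -0.048. *Ifng* itself was dim, at 4.89 in knockout and 5.01 in wild-type prostate.

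Of 9 genes of endosomal proteolysis and antigen processing, 2 were lower and none higher at that threshold (8.49% and 6.27% of all genes). *Ifi30*, which encodes the endosomal thiol reductase GILT, read 13.18, 13.16, 13.33 and 13.31 on the knockout arrays, against 13.42, 13.49, 13.51 and 13.39 on the wild-type arrays. Every knockout array was below every wild-type array, as at 5.03% of all probe sets, and the log2 fold change was -0.21 (unadjusted p = 0.0213, adjusted p = 0.313 from limma). *Ctsh*, which encodes cathepsin H, differed by -0.58 (unadjusted p = 0.0221, adjusted p = 0.316 from limma), while *Ctss*, whose product cathepsin S cleaves the invariant chain, differed by -0.060. Of 3 measured genes of class II turnover, the ubiquitin ligase gene *Marchf8* was higher (0.18, unadjusted p = 0.0287, adjusted p = 0.338 from limma). Of 8 genes of costimulation and T cell partners, none passed an unadjusted p under 0.05 at its brightest probe set. *Cd86*, a ligand of CD28, differed by -0.43 there (unadjusted p = 0.0530 from limma) and by -0.55 at its other probe set (unadjusted p = 0.0130, adjusted p = 0.285 from limma), where every knockout array, at 4.67 to 4.94, was below every wild-type array, at 5.07 to 5.85.

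Of 9 genes of the class I pathway, all but *B2m* and *Nlrc5* in the MHC, 1 was lower and none higher by brightest probe set (8.49% and 6.27% of all genes). The lower one was *Tap1*, which encodes a subunit of the peptide transporter. *Tap1* averaged 10.42 in knockout and 10.79 in wild-type prostate (log2 fold change -0.37, SE 0.074, unadjusted p = 0.00125, adjusted p = 0.177 from limma), with 0.12, 0.058 and -0.079 at its other, dimmer probe sets. A dimmer probe set of the class I heavy-chain gene *H2-D1* was higher, with 6.20 to 6.54 on the knockout and 5.97 to 6.12 on the wild-type arrays (0.36, unadjusted p = 0.00396, adjusted p = 0.225 from limma). The brightest of *H2-D1* differed by 0.059 (unadjusted p = 0.590 from limma). Its other probe sets differed by -0.022 to 0.46, and none of them passed an unadjusted p under 0.05. A dimmer probe set of the proteasome gene *Psmb8* was lower (-0.22, unadjusted p = 0.0131 from limma), with -0.31 at its brightest (unadjusted p = 0.104 from limma). Of 14 measured genes around the class II region, out of 15 listed, *Brd2* (-0.37, unadjusted p = 0.0477) and *Daxx* (-0.18, unadjusted p = 0.0201) were lower in limma and none was higher (8.49% and 6.27% of all genes). The other probe set of *Brd2* differed by -0.12 (unadjusted p = 0.452 from limma). The brighter one read 8.66 on knockout array 1 and 9.27 to 9.37 on the other knockout arrays, against 9.36 to 9.67 on the wild-type arrays. No gene of any of these lists was called at an adjusted p under 0.05.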

How the data were processed

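The authors deposited log2 values made with RMA (software version not given in the sources used here) from Affymetrix Mouse Genome 430 2.0 arrays. Per the labels there were 4 mice per genotype and Trizol extraction, while the methods state 5 mice and an RNeasy kit. Arrays of older mice are not analysed here. Of 45101 probe sets, 64 controls were left out. Symbols came from GEO's platform annotation, with 34945 probe sets holding 1 symbol, 932 several and 9160 none. A gene stands for its brightest probe set (18193 genes). The model was fitted with lmFit and eBayes of limma (3.58.1, under R 4.3.3), 2-sided with array day as a block, and checked on simulated data. The arrays are separate mice, so p-values measure the spread between mice.

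Relations used exact permutation over pairings, adjusted over 14 relations. All member probe sets are reported. Other genes named came from the lists (smallest p, up to 3 per list, or where a result turned on them) or were the 10 most like the members. *Ifng*, *Cr2*, *Blk*, *Fcrla*, *Xcr1*, *Zbtb46*, *Cd209a* and the secondary probe sets of listed genes were picked with their values in view. The members and lists were chosen with earlier results of these data known. Alternatives were other blocks, ANOVA, variance and weight options, renormalization, filters at mean log2 values of 5 and 7, single days, probe set means and left-out arrays. Leaving out knockout arrays 1 and 4 was added after the data were seen.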

Additional observations from a re-analysis of the deposited data

Results flagged for a closer look

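Of 38 groups of 4 arrays, given by 19 member probe sets and 2 genotypes, 1 had an array far from the others by Dixon's test, where chance flags about 1 in 20. At the dimmer probe set shared by *H2-DMb1* and *H2-DMb2*, knockout array 4 read 8.33 and the nearest knockout array 7.53.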

How the results depend on the processing

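No member probe set was called under any alternative, and over 268 values of single probe sets or genes the lowest adjusted p in limma or ANOVA was 0.143, for *H2-Ab1* with a filter at a mean log2 value of 7. The median log2 fold change of the members stayed below 0, at -0.067 without wild-type array 1 to -0.20 without knockout array 1. The counts at an unadjusted p under 0.05 did not hold. The 3 lower probe sets became 0 without array day, 0 with the replicate block and 0 by ANOVA, 5 with array weights, 1 on either array day alone and 1 without both seminal-vesicle-rich arrays. Leaving out single arrays gave 2 (wild-type array 1) to 6 (knockout array 1). The 1 higher probe set became 2 without array day and with median centring, and 0 by ANOVA, with trend and robust variance, with array weights, with the filter at 7, on either array day alone, without both seminal-vesicle-rich arrays and without knockout arrays 1 and 4. Leaving out single arrays gave 0 (such as knockout array 1) to 2 (knockout array 2). The 50 probe sets called over the whole table were 20 with the replicate block, 24 by ANOVA, 4 on either array day alone, 17 without knockout arrays 1 and 4 and 17 (wild-type array 2) to 43 (knockout array 1) without single arrays. The replicate numbers do not pair the samples, since deviations of same-numbered arrays correlated at 0.34, 0.17, 0.043 and -0.0056.

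Signs turned as follows, and the cause was not tested. *H2-Ob* had -0.076 with array weights, -0.33 on array day 1, -0.18 without both seminal-vesicle-rich arrays and -0.42 without knockout arrays 1 and 4, and -0.32 to 0.34 without single arrays. *H2-Eb1* had 0.0027 with median centring and 0.098 on array day 2, and -0.23 to 0.12 without single arrays. *Ciita* had 0.0069 on array day 1, 0.026 as the mean of its probe sets and -0.12 to 0.051 without single arrays. *H2-DMa* had 0.10 as the mean of its probe sets and -0.19 to 0.0063 without single arrays. The second probe set of *H2-Aa* had 0.040 without knockout arrays 1 and 4.

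Of the relations with *H2-Aa*, the 1 that passed became 3 by Spearman rho, 0 without the 2 farthest arrays and 0 (wild-type array 1) to 3 (knockout array 2) without single arrays. Without the 2 farthest arrays r turned to -0.28 for *H2-DMb1*/*H2-DMb2*, -0.052 for *H2-Ob*, -0.034 for B cell, -0.22 for T cell and -0.012 for seminal vesicle markers. After genotype and array day were removed it was -0.054 for *H2-DMb1*/*H2-DMb2* and -0.15 for T cell markers, and higher than before at 0.81 for B cell (adjusted p = 0.105, exact permutation) and 0.76 for seminal vesicle markers (adjusted p = 0.115, exact permutation). Without single arrays it ran from -0.0046 to 0.58 for T cell markers, from -0.027 to 0.73 for seminal vesicle markers and from -0.049 to 0.44 for *Ciita*.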
